A study of Arabidopsis thaliana with 12 samples.

Results

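The 55 genes described here are nuclear genes of Arabidopsis thaliana. Most encode proteins of the photosystems and of their light-harvesting antennae. The rest encode assembly factors and other proteins whose descriptions use the same words. They were taken from the 32833 genes of the deposited table as the rows whose description contains "Photosystem I", "Photosystem II", "Chlorophyll a-b binding" or "Oxygen-evolving enhancer", in any case of letters, and whose locus is not on the chloroplast genome. No measured value entered that choice. By role they comprise 12 photosystem I subunits, 6 antenna proteins of photosystem I, 7 photosystem II subunits, 7 oxygen-evolving proteins, 12 antenna proteins of photosystem II, 4 antenna-like proteins, and 7 assembly and other proteins. LHCB1.4 and LHCB3 are antenna genes that the words of the rule did not take. The data are RNA-seq of 7-day-old whole seedlings, with 12 libraries in 4 groups of 3. Wild type is Col-0, and the mutant carries the hop1, hop2 and hop3 mutations together, which affect the 3 HOP co-chaperones. Each genotype was harvested either without heat (control) or after a final 3 h at 38 °C (heat). Whole seedlings were extracted, so fewer cells of a type and less RNA per cell cannot be told apart.

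Photosystem II uses light to split water, and photosystem I uses light to reduce ferredoxin; both sit in the thylakoid membrane of the chloroplast. Their reaction centre cores are largely encoded by the chloroplast genome, whereas the antenna proteins, most small subunits and the oxygen-evolving proteins are encoded in the nucleus and imported. Photosystem II and its oxygen-evolving proteins are known as heat-sensitive parts of the photosynthetic chain.

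The libraries held between 26.1 and 38.7 M (mega) fragments assigned to genes, recovered from the steps of the normalized values. All 55 genes passed the filter on low values, 47 of them had a mean normalized count of at least 1000, and 31 were among the 100 genes with the highest mean of the table. HSP101, a heat-induced chaperone gene, had a mean of 86.4 ± 7.20 normalized counts in wild-type control and 266600 ± 24540 in wild-type heat (SD, n = 3), and 96.7 ± 10.3 and 319500 ± 72090 in the mutant libraries. In the libraries labelled hop1 hop2 hop3, HOP2 was lower than in wild type at control by -6.10 (log2 fold change, limma adjusted p = 1.02e-13) and under heat by -0.77 (adjusted p = 0.00199), and HOP3 by -4.43 (adjusted p = 0.0259) and -6.44 (adjusted p = 0.00135). HOP1 was not lower, at 596 ± 69.6 against 650 ± 98.6 at control (-0.12, limma adjusted p = 0.917) and at 2068 ± 359 against 1216 ± 197 under heat (0.76, adjusted p = 0.00869). The mutant libraries are therefore called the hop-labelled libraries below.

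After 3 h at 38 °C most of the 55 genes stood higher relative to the average gene, whereas together they filled less of the library. In wild-type control the fragments of the 55 genes made up 16.5%, 15.8% and 16.3% of all fragments, and in wild-type heat 12.4%, 12.6% and 11.8%. In hop-labelled control they made up 16.3%, 15.9% and 14.4%, and in hop-labelled heat 12.3%, 11.2% and 11.9%. Every heated library lay below every control library. The size factors of the authors, which equalize typical genes between libraries, put the same genes the other way, with summed normalized counts of 3.93, 3.30 and 3.45 M in wild-type control against 4.90, 5.73 and 4.33 M in wild-type heat. Hop-labelled sums were 3.99, 3.75 and 3.16 M at control and 5.71, 5.23 and 4.77 M under heat. The heated libraries all lay above the control libraries on this scale, so the direction depends on what the counts are set against.

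**Figure D1:**
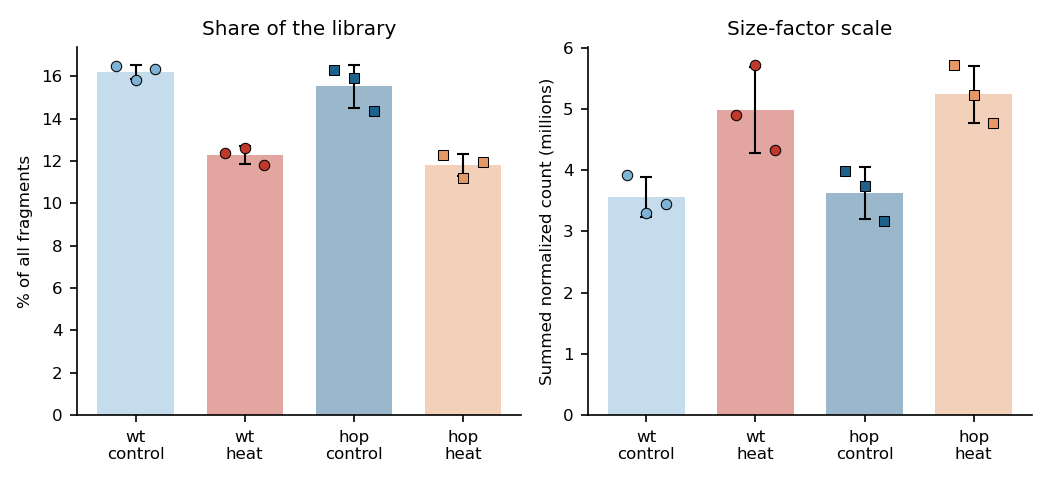
Summed level of the 55 genes in each library, left as percent of all fragments and right as the sum of normalized counts in M; bars are group means, error bars SD (n = 3) and points single libraries. The share averaged 16.2% in wild-type control and 12.3% in wild-type heat, while the summed normalized count averaged 3.56 and 4.98 M.

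On the size-factor scale, limma called 44 of the 55 genes higher and 2 lower under heat in wild type (adjusted p under 0.05), where 33.2% of all 23827 genes tested were called higher and 35.8% lower. With scaling to library size alone, edgeR called 7 of the 55 higher and 34 lower, where 13.3% of all genes were called higher and 60.9% lower. The median log2 fold change of the 55 genes was 0.58, that of all genes tested was -0.08, and that of the 4041 genes with a mean of at least 1000 was 0.59. Of those abundant genes 64.3% were called higher, and on this scale the median of the 55 genes lay next to theirs. With library size alone the medians were -0.30 for the 55 genes and -0.29 for the abundant genes, of which 25.2% were called higher and 50.6% lower. Library size alone shifted the median of all genes by -0.86, and against that shifted median the 55 genes stood at 0.64, compared with 0.66 on the size-factor scale. In the hop-labelled libraries 47 genes were called higher and 2 lower, against 33.3% and 35.2% of all genes, with a median of 0.66 for the 55 genes, -0.06 for all genes and 0.62 for abundant genes; with library size alone the counts were 5 higher and 33 lower, where 13.1% and 61.8% of all genes were called. The control and heat libraries did not overlap for 46 genes in wild type and for 48 in the hop-labelled libraries, where 72.4% and 70.4% of all genes tested did not overlap. A correction for GC content and exon length left 25 genes called higher and 3 lower in wild type, where 33.4% of all genes and 64.8% of abundant genes were called higher and 35.7% and 18.0% lower. After it the median of the 55 genes was 0.21 and that of the abundant genes 0.55, so on that scale the 55 genes lay below other abundant genes. For the mutant that correction left 29 higher and 3 lower, where 33.4% and 35.2% of all genes were called, with medians of 0.30 for the 55 genes and 0.57 for the abundant genes.

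**Figure D2:**
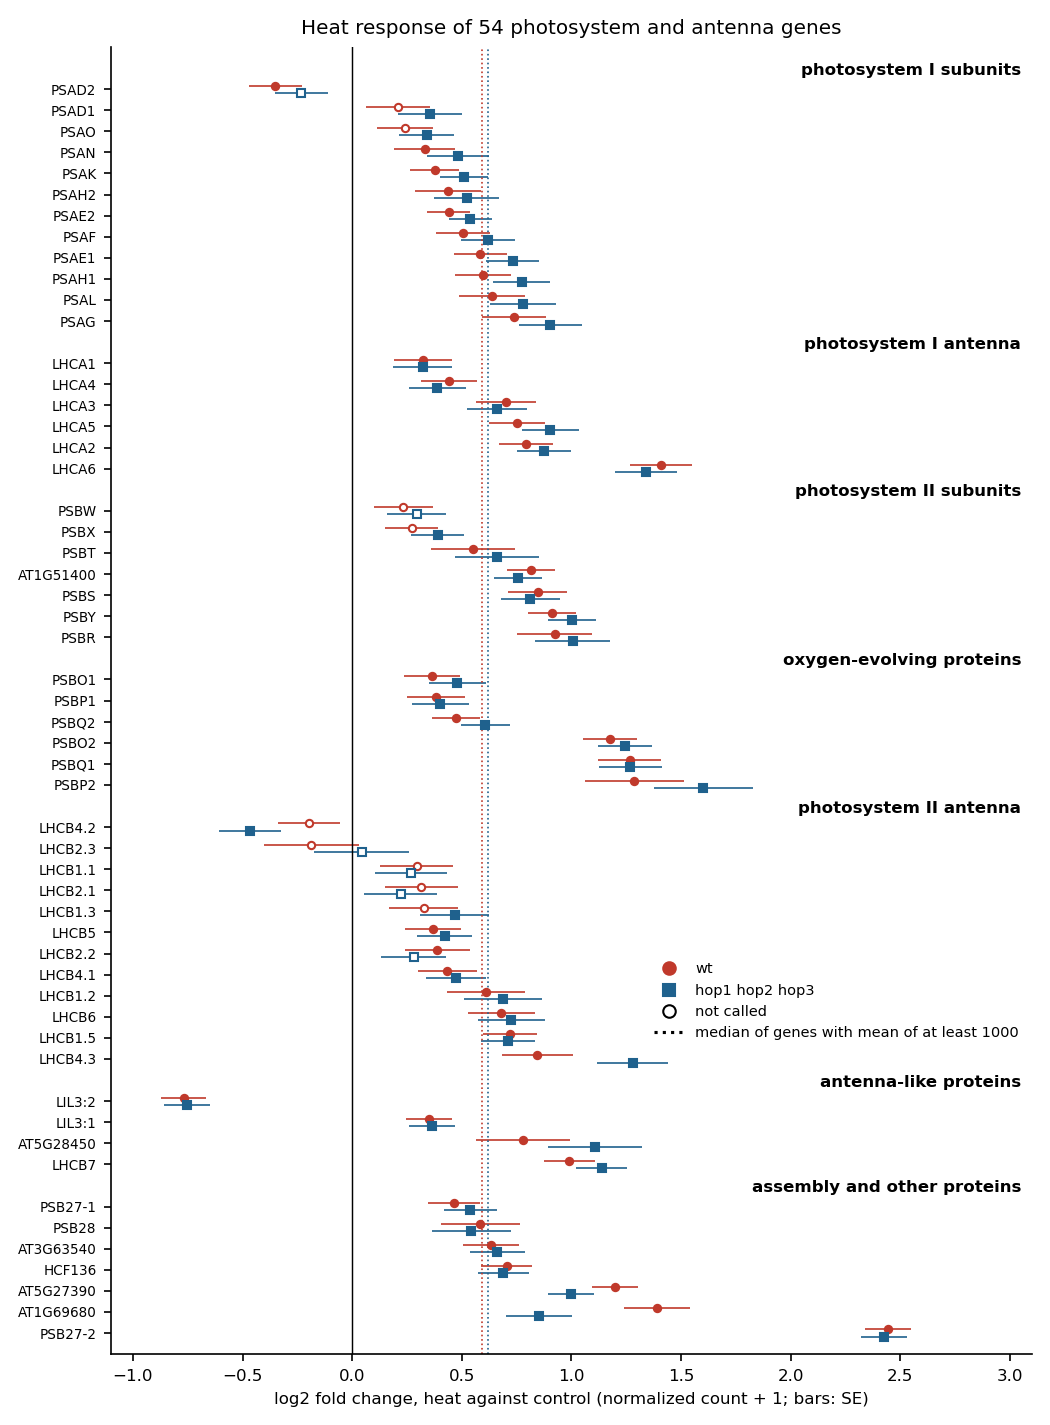
Log2 fold change with heat of 54 of the 55 genes (without AT4G37230, which had too few fragments) on the size-factor scale, in wild type (circles) and in the hop-labelled libraries (squares), by role; bars are standard errors, open symbols were not called and dotted lines mark the median of genes with a mean of at least 1000. PSB27-2 lies furthest right at 2.44 in wild type, and PSBO2, PSBQ1 and PSBP2 stand apart from their partner genes; with scaling to library size alone the median of all genes moves by -0.86 in wild type and -0.91 in the hop-labelled libraries, and most of these genes fall below 0.

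Genes of 4 proteins rose in both genotypes on both scales, PSB27-2, LHCA6, PSBO2 and PSBQ1. PSB27-2 encodes a lumenal protein related to the photosystem II assembly factor PSB27 and described in the table as a D1 precursor processing protein. It was at 259, 248 and 279 normalized counts in wild-type control and at 1517, 1365 and 1405 in wild-type heat. Hop-labelled libraries had 269, 306 and 297 at control and at 1521, 1402 and 1793 under heat. All heated libraries lay far above all controls, with a log2 fold change of 2.44 (SE 0.103, limma adjusted p = 1.19e-11) in wild type and 2.43 (adjusted p = 1.2e-11) in the mutant, and with library size alone of 1.57 and 1.52. LHCA6 encodes a low-abundance antenna protein that links photosystem I to the NADH dehydrogenase-like complex. Its normalized counts were 2290, 1707 and 1781 in wild-type control and 5221, 5794 and 4315 in wild-type heat, a log2 fold change of 1.41 (SE 0.142, limma adjusted p = 3.41e-07), against 0.52 with library size alone. For the mutant it went from 2727, 2349 and 2030 to 6611, 5949 and 5374, without overlap.

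With all 7 genes counted, the oxygen-evolving proteins had the highest role median on the size-factor scale, 1.18 in wild type and 1.24 in the hop-labelled libraries. With library size alone the medians were 0.29 and 0.32, and 3 were called higher and 3 lower in each genotype. After the correction for GC content and exon length 5 and 4 were called higher and none lower. The medians were then 0.75 and 0.65, against 0.73 and 0.72 for the assembly and other proteins. These extrinsic proteins, PSBO, PSBP and PSBQ, cover the manganese cluster of photosystem II on the lumenal side, and each is encoded by a pair of genes. All 7 were called higher on the size-factor scale in both genotypes, but the 7th, AT4G37230, a PsbO family gene, had 1 fragment over all wild-type control libraries and 1 to 4 in each wild-type heat library, and its fold change is not given. Without it the role medians on the size-factor scale were 0.83 and 0.93, against 0.82 and 0.76 for the photosystem II subunits. The medians given for the other scalings include AT4G37230. In wild type it was also among the genes called higher there (edgeR adjusted p = 0.0273 with library size alone, limma adjusted p = 0.0369 after the correction). With library size alone PSBO2, PSBQ1 and PSBP2 were above 0 in both genotypes and PSBO1, PSBP1 and PSBQ2 below 0. Within each pair, the less abundant gene had the larger log2 fold change. PSBO2 had normalized counts of 42660, 36010 and 37510 in wild-type control and 88500, 99920 and 75290 in wild-type heat, and its log2 fold change was 1.18 (SE 0.122, limma adjusted p = 4.71e-07). Its partner PSBO1 had 143000, 126000 and 132500 and then 173600, 196700 and 149100, a log2 fold change of 0.36 (SE 0.129, limma adjusted p = 0.0201), which became -0.52 with library size alone and 0.0034 (adjusted p = 0.979) after the correction for GC content and exon length. The PSBO1 call was lost without wild-type control replicate 2 or 3 or wild-type heat replicate 1 or 2, with adjusted p between 0.0559 and 0.0965. Hop-labelled PSBO1 was also not called after the GC and length correction (0.12, limma adjusted p = 0.3).

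PSBQ1 went from 30540, 24190 and 25980 normalized counts in wild-type control to 64300, 75120 and 55130 in wild-type heat (log2 fold change 1.26, SE 0.144, limma adjusted p = 1.27e-06), and PSBQ2 changed by 0.47 (adjusted p = 0.00144). PSBP2, listed as a putative enhancer protein, was a minor transcript, at 84.0, 129 and 129 in wild-type control and 292, 255 and 277 in wild-type heat, with a log2 fold change of 1.29 (limma adjusted p = 1.32e-04; with library size alone 0.37, adjusted p = 0.249). The main gene PSBP1, at 97950 ± 7125 in wild-type control, changed by 0.38 (limma adjusted p = 0.0176; after the GC and length correction 0.075, adjusted p = 0.584). In the hop-labelled libraries PSBO2 changed by 1.24, PSBQ1 by 1.27 and PSBP2 by 1.60, and all 3 were called. PSBO1 and PSBO2 share 83.6% of their coding bases, so fragments that match both make their separate values uncertain.

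The ratio of paralogues within a library does not depend on how libraries are scaled. Averaged over both genotypes, it moved with heat in all 10 pairs examined. The pairs were set with earlier results known, and an exact two-sided permutation of heat and control within each genotype allows no p below 0.005. PSBO2 per PSBO1 fragment was 0.298, 0.286 and 0.283 in wild-type control and 0.510, 0.508 and 0.505 in wild-type heat. The hop-labelled values were 0.279, 0.291 and 0.303 at control and 0.481, 0.517 and 0.485 under heat. The groups did not overlap, and the change averaged over both genotypes was 0.79 on the log2 scale (exact permutation p = 0.005). PSBQ1 per PSBQ2 changed by 0.73 and PSBP2 per PSBP1 by 1.06 (exact permutation p = 0.005 each). PSB27-2 per PSB27-1 changed by 1.94, the largest of the 10 (exact permutation p = 0.005).

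Other pairs moved toward the partner named second. LIL3:2 per LIL3:1 was 2.038, 2.039 and 2.001 in wild-type control and 0.862, 1.03 and 0.915 in wild-type heat, and 1.95, 1.91 and 1.88 against 0.847, 0.879 and 0.922 in the hop-labelled libraries. The ratio of fragments changed by -1.12 on the log2 scale (exact permutation p = 0.005). Per kilobase of exon LIL3:2 was above LIL3:1 in every group mean, at 3845 against 1388 normalized counts per kilobase in wild-type control and 2256 against 1770 in wild-type heat, and at 4510 against 1724 and 2674 against 2223 in the hop-labelled libraries. LHCB4.2 per LHCB4.1 changed by -0.79 and PSAD2 per PSAD1 by -0.57 (exact permutation p = 0.005 each). The LHCB4.2 value averages -0.63 in wild type and -0.94 in the hop-labelled libraries. Its heated ratios were 0.565 to 0.576 in wild type and 0.433 to 0.492 in the hop-labelled libraries, a difference that was not tested. The photosystem I pairs PSAH2 per PSAH1 and PSAE2 per PSAE1 changed least, by -0.20 (exact permutation p = 0.01) and -0.17 (p = 0.015). The remaining pair, LHCB4.3 per LHCB4.1, changed by 0.61 (exact permutation p = 0.005), from 0.41 in wild type and 0.81 in the hop-labelled libraries. PSAH1 and PSAH2 share 87.0% of coding bases, PSAD1 and PSAD2 86.3%, and LHCB4.1 and LHCB4.2 81.1%, which leaves the split of their fragments uncertain.

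**Figure D3:**
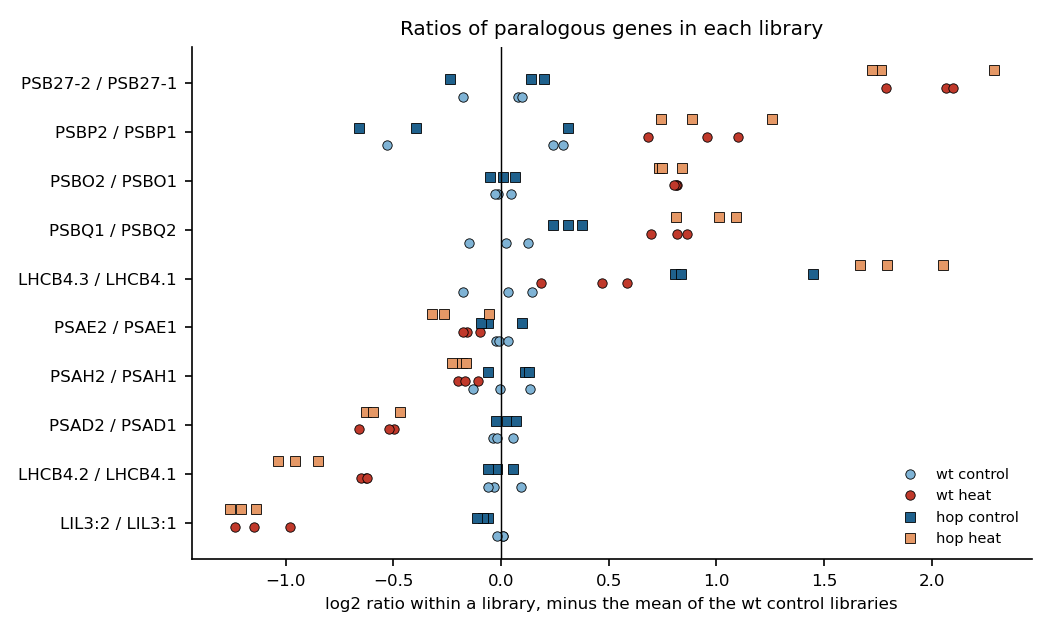
Log2 ratio of the paralogues in each library, expressed as the difference from the mean of the wild-type control libraries; each point is a library. PSB27-2 to PSB27-1 lies furthest right under heat (mean change 1.94) and LIL3:2 to LIL3:1 furthest left (mean change -1.12).

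The photosystem I subunits, small proteins around the core, had low role medians. In wild type 9 of 12 were called higher and 1 lower on the size-factor scale (role median 0.44), and 0 higher and 11 lower with library size alone (role median -0.45). In the hop-labelled libraries 11 were called higher (median 0.53), against 0 higher and 9 lower with library size alone. After the correction for GC content and exon length 3 were called higher and 1 lower in wild type (role median 0.18), and 7 higher and 1 lower in the mutant (0.30). PSAG, which binds at the antenna side of the core, had the largest value in wild type, from 65510 ± 3488 to 110400 ± 18950 normalized counts (SD, n = 3; log2 fold change 0.74, limma adjusted p = 3.2e-04). PSAD1 and PSAD2 encode the subunit that docks ferredoxin on the stromal side. PSAD2 had 28560, 27720 and 26810 normalized counts in wild-type control and 24650, 22840 and 18220 in wild-type heat, and it fell by 0.35 on the log2 scale (SE 0.122, limma adjusted p = 0.0186). The groups did not overlap, but the call was lost without wild-type control replicate 1 (adjusted p = 0.0504) or wild-type heat replicate 3 (adjusted p = 0.106). In the hop-labelled libraries PSAD2 changed by -0.23 (limma adjusted p = 0.105; after the GC and length correction -0.52, adjusted p = 4.51e-04). PSAD1 had 61480, 55870 and 57000 and then 73030, 75530 and 54840, with overlap and a log2 fold change of 0.21 (limma adjusted p = 0.209), and 0.36 in the hop-labelled libraries (adjusted p = 0.0396); the latter was lost without any of 5 libraries, with adjusted p up to 0.143, and after the GC and length correction (0.20, adjusted p = 0.179).

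All 6 antenna genes of photosystem I were called higher on the size-factor scale in both genotypes (medians 0.73 and 0.77), whereas with library size alone 1 was higher and 2 lower in wild type and 1 higher and 3 lower in the mutant. After the correction for GC content and exon length 4 were called higher in each genotype, and LHCA1 (-0.08, limma adjusted p = 0.603, and -0.08, adjusted p = 0.594) and LHCA4 (0.15, adjusted p = 0.233, and 0.09, adjusted p = 0.48) were not. LHCA1 to LHCA4 form the antenna belt of photosystem I, while LHCA5 and LHCA6 are minor proteins. On the size-factor scale LHCA1 had the smallest value, from 125900 ± 4561 to 158100 ± 18520 normalized counts in wild type (log2 fold change 0.32, limma adjusted p = 0.0426), and LHCA4 was the most abundant of the 6 per kilobase of exon, at 142300 normalized counts per kilobase in wild-type control. Per kilobase, LHCA6 was at 1658 and LHCA5 at 2275 in the same libraries, and LHCA6, the least abundant of the group per kilobase, had the largest log2 fold change on the size-factor scale, with library size alone and after the GC and length correction (1.09).

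Of the 7 photosystem II subunit genes, 5 were called higher in wild type and 6 in the hop-labelled libraries on the size-factor scale (medians 0.82 and 0.76), and with library size alone none was higher and 3 and 2 were lower (medians -0.07 and -0.17). After the correction for GC content and exon length 4 were higher in each genotype and none lower (medians 0.36 and 0.29). PSBR, which stabilizes the binding of the oxygen-evolving proteins, went from 83360 ± 13560 to 158700 ± 30740 in wild type (log2 fold change 0.92, limma adjusted p = 1.9e-04), and PSBY from 34210 ± 1468 to 64550 ± 6360 (0.91, adjusted p = 2.26e-06). PSBS senses lumen acidity and switches on the harmless dissipation of excess light. Its normalized counts were 26230, 20620 and 21230 in wild-type control and 41300, 44490 and 36300 in wild-type heat, a log2 fold change of 0.85 (SE 0.136, limma adjusted p = 4.7e-05), and 0.81 in the hop-labelled libraries; with library size alone the values were -0.04 and -0.10. PSBW was not called in either genotype (0.23, limma adjusted p = 0.135, and 0.29, adjusted p = 0.064).

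The antenna of photosystem II had the lowest role median, 0.38 in wild type and 0.44 in the hop-labelled libraries, and its members split. On the size-factor scale 7 of 12 were called higher in each genotype and 0 and 1 lower, with library size alone 0 were higher and 10 and 11 lower, and after the correction for GC content and exon length 1 was higher and 1 lower in each. LHCB1 and LHCB2 form the mobile trimeric antenna, and LHCB4, LHCB5 and LHCB6 are the monomeric proteins between trimers and core. The 4 LHCB1 genes alone made up 5.70% ± 0.214 of all fragments in wild-type control and 4.22% ± 0.189 in wild-type heat (SD, n = 3). LHCB1.3 was the most abundant member, at 585900, 493400 and 486600 normalized counts in wild-type control and 612000, 783300 and 577700 in wild-type heat. These groups overlapped, with a log2 fold change of 0.33 (SE 0.158, limma adjusted p = 0.0797), and 0.47 in the hop-labelled libraries (adjusted p = 0.0162); the latter was lost without hop-labelled control replicate 3 (adjusted p = 0.0827) or heat replicate 1 (0.0684), and after the GC and length correction (0.01, adjusted p = 0.945).

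LHCB1.1 had 357400, 251400 and 295900 normalized counts in wild-type control and 363100, 432400 and 311800 in wild-type heat, which overlap, and its log2 fold changes of 0.29 and 0.27 were not called (limma adjusted p = 0.125 and 0.162). LHCB1.2 changed by 0.61 (limma adjusted p = 0.00638) and 0.69 (adjusted p = 0.00286). LHCB1.5 went from 270200, 248900 and 273200 to 436300, 489700 and 382600 without overlap, by 0.72 in wild type (limma adjusted p = 9.05e-05) and 0.71 in the hop-labelled libraries. All 4 genes turned negative with library size alone, between -0.17 and -0.66 over both genotypes. None of the 4 was called after the correction for GC content and exon length, where LHCB1.2 was at 0.14 (limma adjusted p = 0.402) and 0.23 (adjusted p = 0.176) and LHCB1.5 at 0.15 (adjusted p = 0.186) and 0.19 (adjusted p = 0.0991). LHCB1.1, LHCB1.2 and LHCB1.3 share between 95.7% and 96.4% of their coding bases, and LHCB1.5 shares 90.4% with LHCB1.2, so the separate values of these genes are uncertain. LHCB2.3 was at 42220 ± 6496 and 37390 ± 8003 (log2 fold change -0.19, limma adjusted p = 0.461), and 0.04 in the hop-labelled libraries (adjusted p = 0.869).

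LHCB4 encodes the monomeric protein CP29, and its 3 genes moved apart. The 250 bases before the annotated gene start are shown for LHCB4.1 and LHCB4.3, the genes that differ most in level, and for PSBQ2, which holds the light-related motifs together (RefSeq annotation of TAIR10.1, read 5′ to 3′ on the gene's strand). Capitals mark CACGTG, the G-box bound by HY5 and related factors, GATAAG, the I-box, and CCAATC or its reverse complement GATTGG, the motif bound by GLK factors. The build used for the deposited table is not given in the sources used here, and these coordinates come from TAIR10.1 alone.
LHCB4.1, chr5:208616-208865, plus strand: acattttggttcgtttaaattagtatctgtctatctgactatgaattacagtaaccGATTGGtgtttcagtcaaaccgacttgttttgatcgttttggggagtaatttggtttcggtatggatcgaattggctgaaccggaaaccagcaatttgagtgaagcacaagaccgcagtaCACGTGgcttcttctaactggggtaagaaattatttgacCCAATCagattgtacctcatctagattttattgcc
LHCB4.3, chr2:16745378-16745627, plus strand: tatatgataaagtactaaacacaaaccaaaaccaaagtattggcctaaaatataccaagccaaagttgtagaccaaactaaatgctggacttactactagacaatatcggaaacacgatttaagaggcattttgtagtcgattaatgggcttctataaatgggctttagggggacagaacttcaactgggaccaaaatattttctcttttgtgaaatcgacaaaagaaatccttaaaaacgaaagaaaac
PSBQ2, chr4:2673244-2673493, minus strand: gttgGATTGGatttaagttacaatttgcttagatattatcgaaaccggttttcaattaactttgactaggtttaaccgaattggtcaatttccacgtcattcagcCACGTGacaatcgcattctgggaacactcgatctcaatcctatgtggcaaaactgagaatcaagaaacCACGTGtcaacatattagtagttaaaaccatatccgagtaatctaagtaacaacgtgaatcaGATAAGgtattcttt
The LHCB4.1 window holds 1 G-box and 2 CCAATC motifs, the PSBQ2 window 2 G-boxes, 1 I-box and 1 CCAATC motif, and the LHCB4.3 window none of these letters. Searched on both strands, CACGTG was in 13 of the 54 windows that could be read (24.1%), against 6.49% of 27443 windows of protein-coding genes, GATAAG in 13 (24.1%) against 12.3%, and CCAATC in 13 (24.1%) against 10.2%. GAANNTTC, the minimal pair of heat shock element units, was in 2 windows (3.70%) against 9.55%. A match in a window is a description of its letters and was not tied to any change.

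LHCB4.1 went from 87590, 75330 and 80790 normalized counts in wild-type control to 108700, 128800 and 93820 in wild-type heat (log2 fold change 0.43, limma adjusted p = 0.0101), a call lost without wild-type heat replicate 2 (adjusted p = 0.0581) and after the GC and length correction (-0.0032, adjusted p = 0.98). LHCB4.2 was at 82730, 65310 and 68590 and then at 62310, 72780 and 54070, which overlap (-0.20, limma adjusted p = 0.226; after the GC and length correction -0.62, adjusted p = 2.3e-04). In the hop-labelled libraries LHCB4.2 was at 84530, 76220 and 64820 at control and 60690, 50150 and 52090 under heat, and it fell by 0.47 on the log2 scale (limma adjusted p = 0.00871). LHCB4.1 and LHCB4.2 share 81.1% of their coding bases, so their separate values are uncertain. Both genes were at 52820 to 58190 normalized counts per kilobase in wild-type control. LHCB4.3, whose product is also known as LHCB8, was at 206 per kilobase there.

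LHCB4.3 was the member that differed most between genotypes. It had 285, 283 and 328 normalized counts in wild-type control and 590, 571 and 762 in hop-labelled control. Under heat it had 599, 538 and 477 in wild type and 2022, 1473 and 1234 in the hop-labelled libraries. The genotypes did not overlap in either condition, and the hop-labelled controls lay near the heated wild-type libraries. The log2 fold change of hop-labelled against wild type was 1.09 at control (SE 0.161, 95% interval 0.75 to 1.44, limma adjusted p = 0.00464) and 1.53 under heat (1.18 to 1.87, adjusted p = 1.24e-04). Over every alternative it stayed between 0.96 and 1.17 at control and between 1.33 and 1.69 under heat, with adjusted p of at most 0.0349 and 0.00124. Heat changed it by 0.84 in wild type (limma adjusted p = 2.58e-04) and 1.28 in the hop-labelled libraries (adjusted p = 4.45e-06), and with library size alone by -0.04 and 0.35. The difference between these heat responses was 0.43 (95% interval -0.05 to 0.92, limma adjusted p = 0.589). In the authors' deposited table the genotype log2 fold changes of LHCB4.3 were 1.09 at control (adjusted p = 8.9e-07) and 1.54 under heat (adjusted p = 2.67e-14). Its row is 1 of 1279 rows of that table that stand out of locus order.

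**Figure D4:**
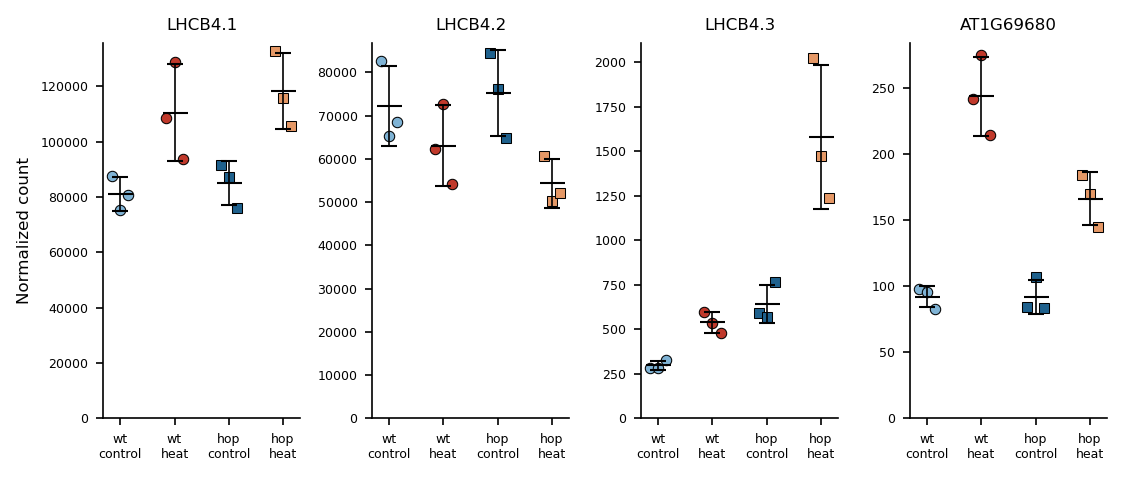
Normalized counts of the LHCB4 genes and of AT1G69680 in each library (points), with group mean and SD (n = 3); each panel has its own axis starting at 0. LHCB4.3 averaged 298 in wild-type control, 538 in wild-type heat, 641 in hop-labelled control and 1576 in hop-labelled heat.

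The comparison of hop-labelled with wild-type libraries called 1 of the 55 genes higher at control, LHCB4.3, and 0 lower, where 0.344% and 0.487% of all genes tested were called. An unadjusted limma p under 0.05 was reached by 5 of the 55 in the higher direction, the near-absent AT4G37230 among them, and 0 in the lower. Over all 23827 genes tested, 2458 reached it in either direction, and their split by direction was not counted. With edgeR and DESeq2 0 of the 55 were called lower, where they called only 183 and 241 of all 23827 genes lower. At shares that low, 0 of 55 says nothing about these genes. Control replicates with the same number deviated together, and with the replicate number as a block 3 were called higher, LHCB4.3 (limma adjusted p = 3.36e-05), PSB28 (0.41, adjusted p = 0.0377) and LIL3:1 (0.31, adjusted p = 0.0409), where the block called 1.58% of all genes higher. PSB28 is a photosystem II assembly factor, and LIL3 proteins bind chlorophyll and anchor enzymes of its synthesis. Under heat 1 gene was called higher, LHCB4.3, and 1 lower, AT1G69680, where 3.73% and 4.89% of all genes tested were called. Leaving aside LHCB4.3, AT1G69680 and the near-absent AT4G37230, the log2 fold changes ran from -0.30 (PSBP2) to 0.41 (PSB28) at control and from -0.21 (LHCB4.2) to 0.37 (PSB28) under heat. The 95% interval under heat was -0.02 to 0.75 for PSB28, 0.10 to 0.55 for LIL3:1 and 0.08 to 0.62 for LHCA5, none of them called. An unadjusted limma p under 0.05 was reached under heat by 4 of the 55 in the higher direction and 1 in the lower. Over all 23827 genes tested, 5765 reached it there. The authors' deposited table also called LIL3:1 higher under heat (0.33, DESeq2 adjusted p = 0.0426), where it called 2202 of 20370 genes in either direction.

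AT1G69680 is described as a protein of the Mog1/PsbP fold, which is shared with PSBP. It had 97.7, 95.9 and 83.1 normalized counts in wild-type control and 84.5, 107 and 83.8 in hop-labelled control, and under heat 242, 275 and 215 in wild type and 184, 170 and 145 in the hop-labelled libraries. The controls overlapped and the heated libraries did not, with a log2 fold change between genotypes of -0.01 at control (limma adjusted p of 1.0) and -0.55 under heat (adjusted p = 0.0351). The call under heat was lost without wild-type heat replicate 1 (adjusted p = 0.0893) or 2 (0.116) or hop-labelled heat replicate 1 (0.0516), 2 (0.0761) or 3 (0.0898). Heat changed it by 1.39 in wild type (limma adjusted p = 7.48e-07) and 0.85 in the hop-labelled libraries (adjusted p = 1.2e-04), and with library size alone by 0.51 and -0.08. The difference between the heat responses was -0.54 (limma adjusted p = 0.416). For no member was that difference called by limma, edgeR or DESeq2, where limma called 12 genes or 0.0504% of all tested. Of all 23827 genes edgeR called 3 higher and 31 lower, and DESeq2 47 higher and 129 lower. AT1G69680 was the 1 member with an unadjusted limma p under 0.05, against 2276 of all 23827 genes tested.

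**Figure D5:**
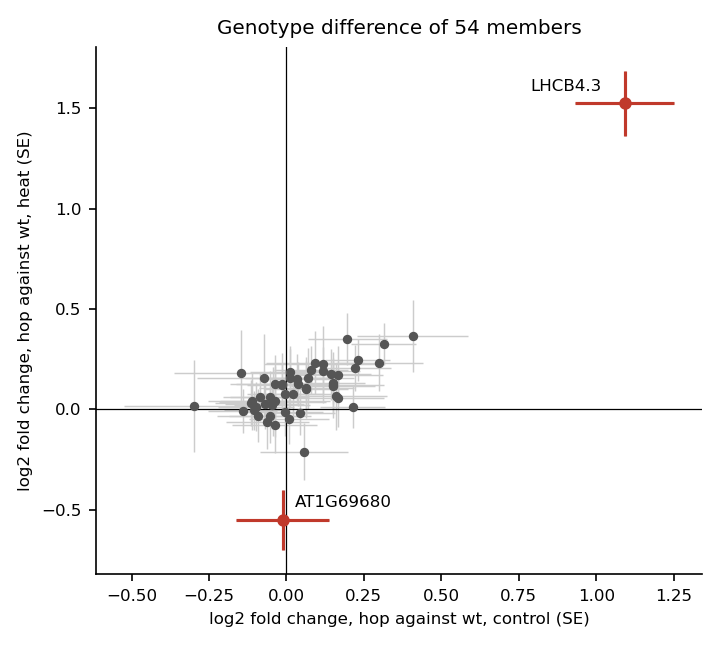
Log2 fold change of hop-labelled against wild-type libraries at control (horizontal) and under heat (vertical) for 54 of the 55 genes, with standard errors; AT4G37230 is left out for its near-absence. LHCB4.3 stands apart at 1.09 and 1.53, AT1G69680 lies at -0.01 and -0.55, and the others lie between -0.30 and 0.41.

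The 4 antenna-like genes went in different directions. LIL3:2 was at 5002, 4222 and 4446 normalized counts in wild-type control and at 2692, 2892 and 2436 in wild-type heat, and in the hop-labelled libraries at 5769, 5437 and 4829 and then 3462, 2953 and 3091. Heated and control libraries did not overlap, and it fell by 0.77 on the log2 scale in wild type (SE 0.104, limma adjusted p = 8.43e-06) and by 0.75 in the hop-labelled libraries (adjusted p = 1.02e-05), and further with library size alone, to -1.65 and -1.67. LHCB7, a rare antenna-like protein, was at 336, 327 and 350 in wild-type control and 654, 789 and 587 in wild-type heat (0.99, limma adjusted p = 1.67e-06; with library size alone 0.11, adjusted p = 0.481). LIL3:1 changed by 0.35 on the size-factor scale, with a call, but by -0.53 with library size alone (edgeR adjusted p = 2.46e-04). AT5G28450 changed by 0.78, also called, but was not called with library size alone (-0.10, edgeR adjusted p = 0.722) or after the GC and length correction (0.18, limma adjusted p = 0.469). All 7 assembly and other genes were called higher in both genotypes on the size-factor scale (medians 0.70 and 0.69). With library size alone 3 were higher and 3 lower in wild type and 1 higher and 3 lower in the mutant. After the GC and length correction 6 were higher in each genotype. Among them AT5G27390, of the same Mog1/PsbP fold, went from 539, 440 and 475 to 1101, 1115 and 1112 in wild type (1.198, limma adjusted p = 6.95e-08), and HCF136, needed to assemble the photosystem II reaction centre, from 8571 ± 886 to 13960 ± 1372 (0.70, adjusted p = 6.29e-05).

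Other genes of the photosynthetic chain are given for setting, from lists chosen with earlier results of these data known. Their counts for heat in wild type are on the size-factor scale, where 33.2% of all genes and 64.3% of abundant genes were called higher and 35.8% and 18.8% lower, with medians of -0.08 and 0.59, and they are followed by the counts with library size alone, where 13.3% of all genes were called higher and 60.9% lower. Of 11 nuclear genes of electron transfer and ATP synthase 9 were called higher and 0 lower (median 0.55), and 1 higher and 7 lower with library size alone (median -0.33), the largest value on both scales being the ferredoxin gene FD1, on the first at 3.78 (limma adjusted p = 4.6e-13), from 4036 ± 532 to 55210 ± 6069 normalized counts. Of 17 Calvin cycle genes 13 were higher and 0 lower (median 0.70), and 2 higher and 7 lower with library size alone (-0.18). The first count was led by the aldolase gene FBA1 at 1.61 (limma adjusted p = 7.29e-08). Of 13 genes of antenna targeting, photosystem II repair and antenna phosphorylation 11 were higher and 0 lower (median 0.66), and 2 higher and 4 lower with library size alone (-0.20). The first count was led by the repair protease gene FTSH8 at 1.295 (limma adjusted p = 2.47e-08). The 16 genes of chlorophyll synthesis split into 7 higher and 4 lower (median 0.14), and 3 higher and 10 lower with library size alone (-0.74), with PORC at 2.04 (limma adjusted p = 1.76e-10) and PORA at -3.09 (adjusted p = 7.12e-08), which both encode protochlorophyllide reductases. Of 9 genes of chlorophyll breakdown 7 were higher and 0 lower (median 0.73), and 2 higher and 2 lower with library size alone (-0.16), led by CLH1 at 1.47 (limma adjusted p = 2.65e-04).

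All 6 light-stress relatives of the antenna proteins outside the rule were called higher (median 1.404), and 3 higher and 1 lower with library size alone (0.52), led by ELIP1, whose product is made under light stress and binds pigments and which reached 3190 ± 49.5 normalized counts in wild-type heat (log2 fold change 7.36, limma adjusted p = 5.63e-06). Of 11 regulators of photosynthesis genes 7 were higher and 1 lower (median 0.33), and 2 higher and 7 lower with library size alone (-0.55). HY5, a light-signalling factor that binds the G-box, changed by 2.08 (limma adjusted p = 4.88e-09), and GLK2, an activator of antenna genes, fell by 0.78 on the log2 scale (adjusted p = 1.85e-05) in wild type and by 1.56 in the hop-labelled libraries (adjusted p = 8.98e-09). Of the 19 chloroplast-encoded photosystem genes, 3 were called higher in wild type and 10 in the hop-labelled libraries, and 0 lower, against 1 in each genotype and 1 and 0 lower with library size alone, and their summed share was 0.294% to 0.563% of fragments in wild-type control and 0.272% to 0.653% in wild-type heat. The libraries came from an mRNA kit that selects on poly(A) tails, which chloroplast transcripts largely lack.

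Markers of tissues in a seedling were counted on the same scales and against the same shares of all genes. Of 8 photorespiration and carbonic anhydrase genes of leaf mesophyll 7 were called higher and 0 lower in wild type (median 0.82), and 1 higher and 2 lower with library size alone (-0.06), and their summed share was 1.19% to 1.27% in wild-type control and 1.26% to 1.34% in wild-type heat. Of 15 root genes 4 were called higher and 4 lower (median -0.35), and 3 higher and 9 lower with library size alone (-1.22), and their summed share was 0.319% to 0.362% at control and 0.124% to 0.133% under heat, carried mainly by PYK10. None of the 15 had a group mean of 0. The hop-labelled root share was 0.341% to 0.368% at control and 0.151% to 0.168% under heat. The part of these values in those of the 55 genes was not tested.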

How the data were processed

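RNA-seq of 12 seedling libraries was deposited as a single table with normalized fragment counts per gene (a signal that the authors scaled by size factors), their log2 fold changes and their p-values, raw and adjusted. Per the submitters' processing notes, TopHat2 2.1.0, HTSeq and DESeq2 1.1.14 were used; for the strand setting and the build, nothing is given in the sources used here. Per the labels, a stranded mRNA kit was used. Values were whole multiples of what 1 fragment is worth (100% within 0.01 of a whole count), which gave back the counts and the depth of 26.1 to 38.7 M (mega) fragments; intervals cover the spread among libraries only.

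The test was limma 3.58.1 (trend, robust; R 4.3.3) on log2(normalized count + 1), fitted to all 12 libraries and 23827 genes (those reaching 1 in 3 or more libraries), with Benjamini-Hochberg adjustment over all of them and a threshold of 0.05. Fold changes are on that scale, which understates low genes. edgeR 4.0.16 and DESeq2 1.42.0 on the recovered counts were alternatives, as were pseudocounts of 0.5 and 5, no filter or a filter at 10, library size alone, size factors from other nuclear genes, the groups of a comparison alone, a correction for GC content and exon length (TAIR10.1, all 55 genes matched), a replicate block and leaving out each library. The limma test alone was tried on simulated data. Few genes were changed there, unlike in the heat comparisons, where most genes were called.

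Members were taken by the words of the rule, without a measured value. The rule, the lists and the pairs were set with earlier results of these data known. Genes named in the heat comparison are up to 8 with the largest rise and fall among those called without overlap and with a mean of at least 10, the called members of the genotype comparisons, and a fixed set of PSBO, PSAD, LHCB1, LHCB4 and PSBS genes; others are examples chosen after their values were seen. Whether replicates were grown separately is not stated, so the p-values reflect variation among these libraries, which may be technical. Replicates with the same number deviated together at control, with correlations between genotypes of 0.543, 0.333 and 0.351 over genes, and not in all pairs of the other comparisons, so the block counts as a pairing for the control comparison only. All per-sample columns were mapped to a sample.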

Additional observations from a re-analysis of the deposited data

How the results depend on the processing

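Scaling to library size alone turned the median heat response of the 55 genes to -0.30 in wild type and -0.27 in the hop-labelled libraries (7 higher and 34 lower, 5 and 33). It gave 2 lower between genotypes under heat, where 1042 of all 23827 genes were called lower. It reversed AT1G69680 (-0.075 in the hop-labelled libraries), LHCB4.3 in wild type (-0.038) and, in wild type and hop-labelled libraries, PSBO1 (-0.52, -0.44), PSAD1 (-0.67, -0.57), LHCB1.1 (-0.59, -0.66), LHCB1.2 (-0.27, -0.25), LHCB1.3 (-0.56, -0.46), LHCB1.5 (-0.17, -0.21), LHCB4.1 (-0.45, -0.45) and PSBS (-0.039, -0.10). That scale moved the median of all genes by -0.86 in wild type and -0.91 in the hop-labelled libraries. The cause of the reversals was not tested. The correction for GC content and exon length gave 25 and 29 higher with medians of 0.21 and 0.30. Between genotypes under heat it gave 2 higher, where 913 of all 23559 genes were called higher. Among others it turned LHCB1.1 (-0.10, -0.12), LHCA1 (-0.08, -0.08), LHCB1.3 in wild type (-0.14) and LHCB4.1 in wild type (-0.0032). It also ended, among others, the calls of PSBO1, PSBP1, LHCA1, LHCA4, LHCB1.2 and LHCB1.5, and the cause was not tested. Joined with the replicate block the correction gave 26 and 29 higher, and the same medians and reversals. Between genotypes it then gave 3 higher at control and 5 under heat, where 477 and 2285 of all 23559 genes were called higher. The block alone gave 3 higher at control, where it called 377 of all 23827 genes higher. Under heat, where same-numbered replicates correlated by 0.059, 0.202 and 0.339, it gave 4 higher and 1 lower. There it called 2237 of all 23827 genes higher and 2065 lower. Beyond the genes it added to these counts, the block changed no call of a named gene. DESeq2 gave 2 higher between genotypes under heat, where it called 1062 of all 23827 genes higher. As a share of nuclear-encoded fragments the 55 genes took 17.33%, 13.05%, 16.84% and 12.86% in wild-type control and heat and hop-labelled control and heat.

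Leaving out single libraries gave 35 to 49 higher and 1 to 2 lower for heat in wild type and 39 to 48 higher in the hop-labelled libraries. Of all 23827 genes the same fits called 7487 to 7993 higher and 7921 to 8648 lower in wild type, and 7508 to 7968 higher in the hop-labelled libraries. Between genotypes under heat 1 to 2 members were higher and 0 to 1 lower, against 384 to 1009 and 679 to 1325 of all genes. The 2 higher arose without hop-labelled heat replicate 3, where 1009 of all 23827 genes were called higher. Paralogue ratios kept their sign and call without any single library, a check chosen after seeing the data. Of 1032 alternative values of named genes, 949 kept direction and call, 44 lost the call, 13 gained it and 26 changed sign. With 3 libraries a group, the spread limits what can be seen between genotypes.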
